A study of Mus musculus with 56 samples.

Results

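Untreated dm/- cells were compared with untreated dm/fl cells, which are mouse mammary tumor cells with altered β-catenin alleles. The comparison was defined by the sample labels and holds 8 of the 56 RNA-sequencing samples of the series, 4 of each genotype. All cells came from an MMTV-PyMT transgenic tumor on the FVB/N background, in which the MMTV promoter drives the polyoma middle T oncogene in the mammary epithelium of female mice. The methods describe lines taken from thoracic mammary tumors at 12 weeks of age and freed of fibroblasts by differential trypsinization. dm/fl cells carry a β-catenin allele named dm beside a floxed allele. dm/- cells carry the dm allele alone, and the methods describe such lines for other alleles as made by infection with an adenovirus for Cre recombinase and GFP, followed by sorting of green cells. The sources used here do not spell out what dm stands for, and they describe no dm line. Of the 4 samples of each genotype, 2 were the cells left without cytokine for 3 days in the Wnt3a experiment and 2 were the cells left without cytokine for 4 days in the TGFβ experiment. The labels do not say whether replicates are separate lines or cultures of the same line, so p-values measure the spread between these samples only, which may be technical. Loss of the floxed allele, exposure to Cre and the choice of a sorted line cannot be told apart.

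β-catenin, encoded by Ctnnb1, has a structural and a transcriptional role. At adherens junctions it ties E-cadherin to α-catenin and the actin cytoskeleton. In canonical Wnt signaling it escapes the Axin and Apc destruction complex, enters the nucleus and binds Tcf and Lef factors, and it brings Bcl9, Bcl9l and Pygopus proteins and other co-activators to target genes such as Axin2, Lef1 and Notum. In mammary tumor cells Wnt signaling is linked to basal cell identity and to the epithelial-mesenchymal transition (EMT), in which cells lose tight junctions and gain vimentin, matrix proteins and the factors Zeb1, Snai2 and Prrx1.

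Expression is given as CPM, here the reads of a gene divided by an effective library size in M reads that the authors set for each sample. The 8 samples held 24.8 to 31.8 M reads on genes, and a single read was worth 0.0306 to 0.0454 CPM. Values of a gene are always listed as the 2 replicates of the Wnt3a experiment followed by the 2 replicates of the TGFβ experiment. Fold changes are differences of log2(CPM + 1), which understates changes of low genes. Rose, fell, increase and decrease refer to dm/- relative to dm/fl cells only. For some genes the untreated fl/fl cells of the series, whose β-catenin alleles are both floxed, are given for reference. A gene was called at an adjusted p of at most 0.05 (limma, Benjamini-Hochberg over all genes tested) and a log2 fold change of 1 or more in size, with the experiment as a block. Intervals of read ratios cover counting error only.

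1 library stood apart from the others. dm/fl replicate 1 of the Wnt3a experiment correlated with the other dm/fl libraries at r = 0.769 to 0.827 across genes, while the other dm/fl libraries correlated with each other at 0.952 to 0.986 and the dm/- libraries at 0.956 to 0.988. Its deviation from the mean of the 8 samples followed the GC content of the transcripts with a Spearman coefficient of 0.78. Results that rest on it are given with and without it. Neither version is free of a GC trend. The other dm/fl libraries had coefficients of -0.55, -0.48 and -0.31. The difference of dm/- from dm/fl followed GC content at -0.11 with the library and at 0.28 without it.

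Epithelial markers were present in both genotypes. Epcam, an epithelial adhesion molecule, lay at 175 to 243 CPM in dm/- and 129 to 169 CPM in dm/fl cells. Krt8 lay at 191 to 583 and 292 to 1609 CPM, and Krt18, its keratin partner in simple epithelia, at 534 to 1509 and 373 to 1216 CPM. The luminal markers Krt19 and Elf5 were at or near 0 in all 8 samples.

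The genotypes differed in a large set of genes. Of 12333 genes tested, 2016 were called (16.3%), 768 of them higher (6.23%) and 1248 lower (10.1%) in dm/- cells, and the median log2 fold change over all genes was 0.0045. For 1843 of the called genes, or 14.9% of the genes tested, the 4 dm/- values did not overlap the 4 dm/fl values. Called or not, 2974 genes (24.1%) did not overlap, so a lack of overlap by itself is common here. Without the library that stood apart 2755 genes were called (22.4%), 1111 higher (9.05%) and 1644 lower (13.4%), and of the 2009 original calls still tested 1886 were called again in the same direction. The number of genes called higher dropped to 503 without dm/- replicate 2 of the TGFβ experiment.

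Within the experiments, 879 genes were called in the Wnt3a experiment (7.13%, 296 higher and 583 lower) and 1170 in the TGFβ experiment (9.49%, 329 higher and 841 lower), each with 2 samples against 2 and the spread estimated over all 8. Of the 2016 genes, which were called on the same samples, 863 and 1077 passed the thresholds in the Wnt3a and the TGFβ experiment. These within-experiment counts depend on single libraries. Without dm/fl replicate 1 of the Wnt3a experiment they were 2939 and 2765, without dm/fl replicate 2 of the Wnt3a experiment, when the library that stood apart is the only dm/fl library there, 6392 and 2766. Without any other library they lay between 182 and 515 in the Wnt3a experiment and between 292 and 810 in the TGFβ experiment. A test of the difference between experiments called 0 genes with limma, with 293 at an unadjusted p under 0.05, and 0 with edgeR. This count became 5435 when the library that stood apart was the only dm/fl library of its experiment.

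Cells of the same genotypes that had received a cytokine, either Wnt3a (3 days, 100 ng/ml) or TGFβ (4 days, 2 ng/ml), are separate samples. Among them, 2140 genes were called (17.4%), 1032 higher and 1108 lower. Of the 2016 genes called in untreated cells 1903 were tested in treated cells, and 1840 had the same direction and 1162 were also called there, none in the opposite direction. The treated count was 3388 without dm/- replicate 1 of Wnt3a-treated cells and 1366 without dm/fl replicate 1 of TGFβ-treated cells.

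Ctnnb1 itself (chromosome 9, 120933400 to 120960507, mm10) was read in every sample. It reached 736, 658, 770.4 and 897 CPM in dm/- and 899, 899, 1327 and 1410.0 CPM in dm/fl cells. The highest dm/- value lay just below the lowest dm/fl value, and the difference missed the thresholds (log2 fold change -0.54 ± 0.20 SE, limma adjusted p = 0.0980). Without the library that stood apart the log2 fold change was -0.58 with an adjusted p of 0.0159 (limma), still below the fold threshold. The deposited values cover the whole gene and do not separate reads of the dm allele from those of the floxed allele.

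Among 20 genes for β-catenin and its partners, 0 were called higher and 1 lower, which is 5% of the list against 16.3% of all genes, with a median log2 fold change of -0.45. Without the library that stood apart 1 was called higher and 1 lower. The gene called lower was Pygo1, a Pygopus protein that reads histone marks and binds Bcl9, which had 0, 0, 0.0611 and 0.0354 CPM in dm/- and 1.36, 1.45, 2.95 and 1.66 CPM in dm/fl cells. Over the 4 libraries this was 3 reads against 224, a ratio of dm/fl to dm/- of 71.4 with a 95% counting interval of 24.1 to 349 (log2 fold change -1.45, limma adjusted p = 0.00118). Bcl9 and Bcl9l, the adaptors between β-catenin and Pygopus, did not pass the test. Bcl9 lay at 36.3 to 44.7 CPM in dm/- and 32.6 to 125 CPM in dm/fl cells (adjusted p = 0.240, limma), and Bcl9l at 42.9 to 106 and 43.6 to 551 CPM (adjusted p = 0.566, limma). For both genes the highest dm/fl value was that of the library that stood apart, and the sign of the Bcl9l difference turned from -0.73 to 0.10 (log2) without it. Up to 4 members were called lower when single libraries were left out, the highest number without dm/fl replicate 2 of the Wnt3a experiment, and 2 without dm/- replicate 1 of the Wnt3a experiment, dm/- replicate 1 of the TGFβ experiment or dm/fl replicate 2 of the TGFβ experiment.

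Wnt target and feedback genes were lower in dm/- cells where they differed. Of 18 tested, 0 were called higher and 7 lower, against 6.23% and 10.1% of all genes, and the median log2 fold change was -0.90. Without the library that stood apart 1 was called higher and 6 lower, with a median of -0.60. Axin2, the scaffold of the destruction complex and a direct Wnt target, had 0, 0, 0.0306 and 0 CPM in dm/- and 3.18, 1.54, 3.57 and 2.74 CPM in dm/fl cells. A single read was left in the 4 dm/- libraries against 321 in dm/fl, a ratio of dm/fl to dm/- of 307 with a 95% counting interval of 54.7 to 12156 (log2 fold change -1.86, limma adjusted p = 0.000556).

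Notum, an enzyme that removes the lipid from secreted Wnt proteins, was measured at 0.188, 0.712, 0.886 and 0.495 CPM in dm/- and 84.3, 19.6, 29.9 and 31.4 CPM in dm/fl cells. The groups lay far apart (log2 fold change -4.56 ± 0.44 SE, limma adjusted p = 0.000238). Ephb2, a receptor that sorts epithelial cells, fell as well (log2 fold change -2.07 ± 0.36 SE, limma adjusted p = 0.00495). Lef1, the factor that β-catenin binds on DNA, had 0.301, 0.119, 0.519 and 0.389 CPM in dm/- and 2.36, 1.01, 1.68 and 1.59 CPM in dm/fl cells, with no overlap, but its fold change lay just under the threshold (log2 fold change -0.98 ± 0.21 SE, limma adjusted p = 0.0121), and it was called in 9 of 18 alternative analyses. Untreated fl/fl cells had 0 CPM of Lef1 and 0.161 to 1.46 CPM of Axin2. The other members called lower were Nkd2, Sfrp1, Ccnd1 and Fzd7, with log2 fold changes of -1.20, -1.11, -1.01 and -1.18. The number called lower was 4 without dm/fl replicate 1 or dm/- replicate 2 of the TGFβ experiment. Myc and Cd44 did not pass the test (adjusted p = 0.0583 and 0.409, limma).

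Wnt ligands and receptors moved in both directions. Of 21 tested, 3 were called higher and 7 lower in dm/- cells, or 47.6% against 16.3% of all genes. Wnt5a, a ligand of non-canonical signaling, had 0.789, 0.712, 1.01 and 1.17 CPM in dm/- and 38.8, 35.7, 73.6 and 44.0 CPM in dm/fl cells (log2 fold change -4.62 ± 0.26 SE, limma adjusted p = 1.89e-05). Wnt7a, an epithelial ligand, went the other way, with 306, 221, 202 and 219 CPM in dm/- and 81.7, 40.2, 22.7 and 33.3 CPM in dm/fl cells (log2 fold change 2.53 ± 0.31 SE, limma adjusted p = 0.000803). Neither gene overlapped between the genotypes. Wnt10a, a canonical ligand, rose, with 0.0615 to 0.637 CPM in dm/fl and 3.36 to 8.58 CPM in dm/- cells (log2 fold change 2.31, limma adjusted p = 0.000805). Among the Frizzled receptors Fzd1 fell (log2 fold change -3.22 ± 0.36 SE, limma adjusted p = 0.000539), and Fzd7 and Fzd8 fell as well (log2 fold changes -1.18 and -1.42). The co-receptors Lrp5 and Lrp6 did not pass the test (adjusted p = 0.991 and 0.232, limma). The number called higher was 5 without the library that stood apart, and the number called lower was 4 without dm/- replicate 2 of either experiment.

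On the log2(CPM + 1) scale the largest increase was that of Cldn7, a claudin of epithelial tight junctions (chromosome 11, 69964779 to 69967886, mm10). Its promoter and that of Cldn4 are shown because both genes rose and both windows hold the E-box CACCTG that EMT repressors of the Zeb and Snail families are known to bind. Each sequence is the 250 bases before an annotated RefSeq start (GRCm38.p6), 5′ to 3′ on the strand of the gene, with CACCTG or its reverse complement CAGGTG in capitals. For Cldn7, which has 2 annotated starts, the window of the start with matches is given (chr11:69965171-69965420, plus strand), and for Cldn4 that of its only start (chr5:134946935-134947184, minus strand). The Cldn7 window lies inside the annotated span of the gene, and the window of its other start held no match.
Cldn7: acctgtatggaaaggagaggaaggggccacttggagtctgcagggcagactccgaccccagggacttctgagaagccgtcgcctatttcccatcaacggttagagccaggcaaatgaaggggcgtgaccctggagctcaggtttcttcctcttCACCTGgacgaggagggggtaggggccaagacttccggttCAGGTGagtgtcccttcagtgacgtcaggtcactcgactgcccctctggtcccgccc
Cldn4: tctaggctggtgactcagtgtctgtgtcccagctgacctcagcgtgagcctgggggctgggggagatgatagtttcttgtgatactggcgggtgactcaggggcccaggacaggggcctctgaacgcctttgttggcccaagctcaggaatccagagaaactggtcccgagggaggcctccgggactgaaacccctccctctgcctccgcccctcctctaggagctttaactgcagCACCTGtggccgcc
The matches began 97 and 57 bases before the Cldn7 start and 14 bases before the Cldn4 start. The E-box was found in 17.2% of 32851 promoter windows of this length, and in at least 1 window of 19.4% of 27025 genes. Of the 6 epithelial genes called higher, 4 had a promoter entry and 3 of them held a match, in Cldn4, Cldn7 and Ocln. A match is a description of the letters only.

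Cldn7 was measured at 132, 209.8, 184 and 117 CPM in dm/- and 1.497, 0.430, 0.621 and 1.12 CPM in dm/fl cells. No value of either genotype came near the other (log2 fold change 6.39 ± 0.31 SE, limma adjusted p = 1.08e-05), and the difference was also called in cytokine-treated cells (log2 fold change 6.19, limma adjusted p = 0.000148). Cldn4, a claudin of the same family, had 922, 777, 1431 and 916 CPM in dm/- and 454, 87.7, 140.1 and 197 CPM in dm/fl cells. The library that stood apart was the highest of the dm/fl values and still lay below all dm/- values (log2 fold change 2.43 ± 0.48 SE, limma adjusted p = 0.00913). Ocln, which encodes the tight junction protein occludin, rose, with 5.44 to 19.7 CPM in dm/fl and 76.8 to 90.6 CPM in dm/- cells (log2 fold change 2.57 ± 0.37 SE, limma adjusted p = 0.00191). Marveld2, a protein of tricellular junctions, Dsg2, a desmosomal cadherin, and Esrp1, a splicing factor of epithelial cells, also rose, by log2 fold changes of 1.76, 1.92 and 1.70.

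In the whole list of 33 epithelial genes, 6 were called higher and 1 lower, against 6.23% and 10.1% of all genes, with a median log2 fold change of 0.40. The number called higher stayed between 6 and 9 when single libraries were left out. Cdh1, which encodes E-cadherin, had 477, 559, 495 and 447 CPM in dm/- and 297, 299, 254 and 289.8 CPM in dm/fl cells, and its difference passed the adjusted p but not the fold threshold (log2 fold change 0.79 ± 0.19 SE, limma adjusted p = 0.0190). Epcam did not pass the test (adjusted p = 0.214, limma). Spint1, a membrane-bound protease inhibitor, was the member called lower (log2 fold change -2.12 ± 0.23 SE, limma adjusted p = 0.000438), and 2 or 3 members were called lower without dm/fl replicate 2 or replicate 1 of the Wnt3a experiment.

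**Figure D1:**
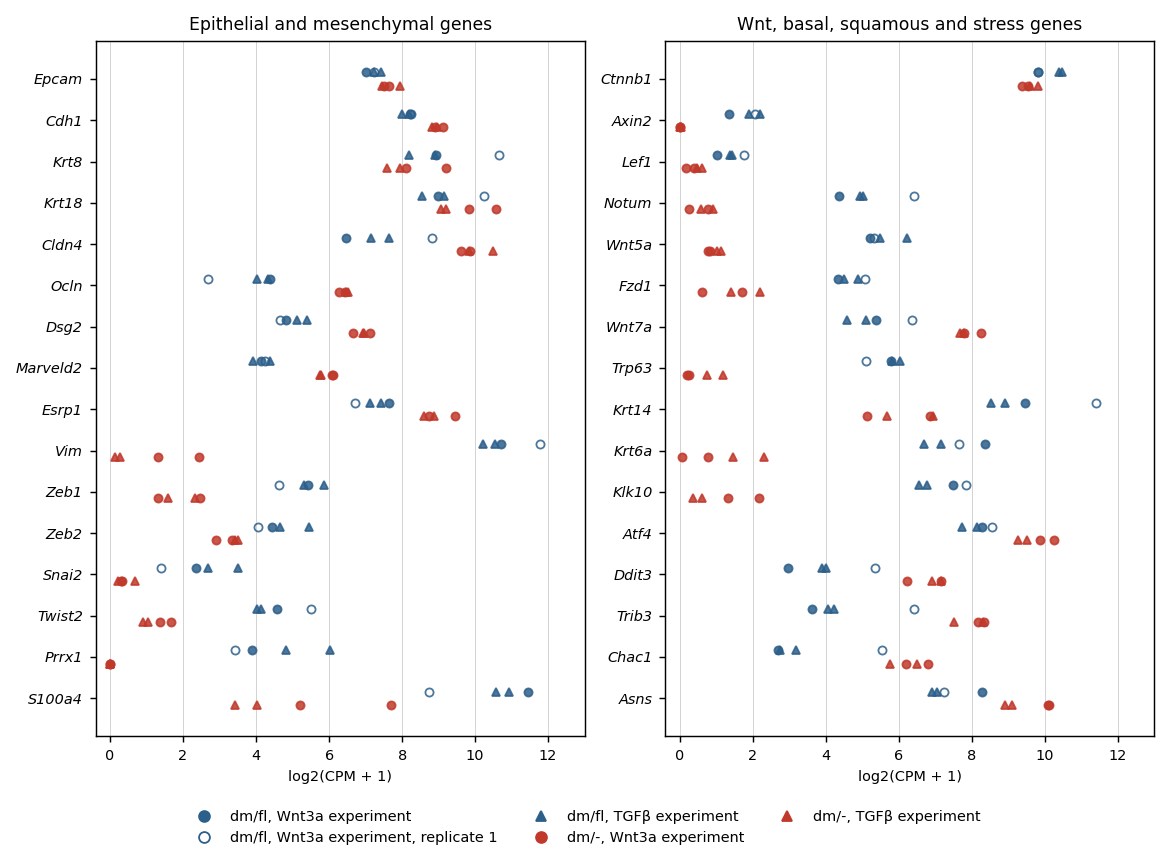
log2(CPM + 1) of 32 genes in the 8 untreated samples, with dm/fl in blue, dm/- in red, the Wnt3a experiment as circles, the TGFβ experiment as triangles and the dm/fl library that stood apart as an open circle. Prrx1 and Axin2 sit at or near 0 and Vim and Trp63 below 3 in all dm/- samples, while Cldn4, Ocln, Wnt7a and Trib3 sit to the right of all dm/fl samples.

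On the log2(CPM + 1) scale the largest decrease was that of Vim, which encodes vimentin, the intermediate filament of mesenchymal cells (chromosome 2, 13574311 to 13582826, mm10). It had 1.47, 4.39, 0.0917 and 0.212 CPM in dm/- and 3536, 1660.0, 1501 and 1182 CPM in dm/fl cells. Every dm/- sample stayed below 5 CPM, far under the lowest dm/fl sample (log2 fold change -9.78 ± 0.37 SE, limma adjusted p = 6.58e-06). As a ratio of CPM Col6a2, which had 0 reads in dm/- cells, fell by more than Vim. It was at least 3626-fold lower, while Vim had means of 1.54 CPM in dm/- and 1970 CPM in dm/fl cells. In cytokine-treated cells the log2 fold change of Vim was -5.61 (limma adjusted p = 0.00453). Prrx1, a homeobox factor of mesenchyme, had 0 reads in every dm/- sample and 9.71, 13.7, 64.5 and 27.5 CPM in dm/fl cells. At a limit of 3 reads over the 4 dm/- libraries it was at least 1146-fold lower (limma adjusted p = 0.000206).

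Of 25 mesenchymal and EMT genes tested, 0 were called higher and 15 lower in dm/- cells, against 6.23% and 10.1% of all genes. Their median log2 fold change was -1.35. Single libraries left out gave 12 to 19 genes called lower, and 1 called higher without the library that stood apart. Zeb1, a repressor of epithelial genes, fell, with 23.7 to 56.9 CPM in dm/fl and 1.502 to 4.51 CPM in dm/- cells (log2 fold change -3.38 ± 0.37 SE, limma adjusted p = 0.000460). Zeb2 and Snai2, which act in the same way, fell too, and so did Twist2 (log2 fold changes -1.35, -2.10 and -3.31). S100a4, a calcium-binding protein of motile cells, had 35.7, 204, 9.69 and 15.2 CPM in dm/- and 425, 2774, 1962 and 1514 CPM in dm/fl cells, with no overlap (log2 fold change -5.34 ± 0.89 SE, limma adjusted p = 0.00395). Cdh2, which encodes N-cadherin, fell (log2 fold change -1.49). Fn1, which encodes fibronectin, and Snai1 did not pass the test (adjusted p = 0.0953 and 0.170, limma).

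Matrix genes were among the largest decreases. Of 28 collagens and other matrix genes, 1 was called higher and 14 lower, against 6.23% and 10.1% of all genes. Leaving out single libraries gave 14 to 18 lower. Col5a2, a chain of the fibril-initiating collagen V, had 1.503, 2.02, 2.11 and 2.12 CPM in dm/- and 1351, 396, 640.2 and 500.2 CPM in dm/fl cells (log2 fold change -7.78 ± 0.38 SE, limma adjusted p = 1.12e-05). Col6a1, a chain of microfibrillar collagen VI, had 0.188, 0.554, 2.26 and 0.778 CPM in dm/- and 391.6, 98.4, 689 and 342 CPM in dm/fl cells (log2 fold change -7.42 ± 0.48 SE, limma adjusted p = 3.63e-05). Both genes lay below 3 CPM in every dm/- sample. Fbn1, the backbone of elastic microfibrils, fell, with 270.1 to 514 CPM in dm/fl and 0.263 to 1.68 CPM in dm/- cells (log2 fold change -7.65 ± 0.27 SE, limma adjusted p = 6.58e-06), and Col5a1 fell with a log2 fold change of -7.41. In untreated fl/fl cells Col5a2 lay at 0.0315 to 0.0403 CPM, Col6a1 at 0 to 0.805, Fbn1 at 0.150 to 0.523 and Col5a1 at 0.599 to 2.76 CPM. For these genes fl/fl cells were thus near dm/- and far below dm/fl cells. Col6a2 and Col3a1 had 0 reads in all dm/- libraries and were at least 3626-fold and 1267-fold lower. Among genes of the basement membrane Col4a1, Col4a2 and Hspg2 did not pass the test (adjusted p = 0.737, 0.305 and 0.570, limma), and Nid1, which encodes the basement membrane linker nidogen, rose (log2 fold change 1.82 ± 0.23 SE, limma adjusted p = 0.00102). The number called higher was 3 without dm/fl replicate 1 and 2 without dm/fl replicate 2 of the Wnt3a experiment.

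Markers of fibroblasts moved with these groups. Of 12 listed, 6 were tested, and 4 of them, Pdgfra, Pdgfrb, Col1a2 and Col3a1, were called lower and Col15a1 higher. The calls made up 83.3% of those tested, against 16.3% of all genes. Col1a1 was tested and not called. The summed level of the list was 21.2 to 39.4 CPM in dm/- and 165 to 555 CPM in dm/fl cells. Col15a1 alone had 13.2 to 32.8 CPM in dm/- and 0.311 to 1.72 CPM in dm/fl cells. Pdgfrb, the receptor of pericytes and fibroblasts, had 0.0751, 0.435, 0.306 and 0.495 CPM in dm/- and 166, 45.7, 227 and 145 CPM in dm/fl cells (log2 fold change -6.59 ± 0.44 SE, limma adjusted p = 3.89e-05), and Pdgfra had 10.1, 5.61, 5.13 and 6.65 and 40.4, 73.7, 302 and 163 CPM. The fibroblast markers Dcn, Lum, Thy1, Fap, Dpt and Pi16 stayed below the expression filter, and Dcn had 0 reads in dm/- and 87 in dm/fl cells. In bulk RNA fewer cells of a type and less RNA per cell cannot be told apart, and the part of these markers in the mesenchymal and matrix differences was not tested. Of the immune markers Cd68, a lysosomal glycoprotein, rose and Csf1r, the receptor of macrophage colony-stimulating factor, fell, while Ptprc, the pan-leukocyte marker, had 0 reads in dm/- and 7 in dm/fl cells. Endothelial markers summed to 7.71 to 16.9 CPM in dm/- and 1.52 to 6.26 CPM in dm/fl cells, nearly all from Egfl7. Adipocyte markers summed to 3.119 to 7.58 and 1.27 to 24.0 CPM.

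**Figure D2:**
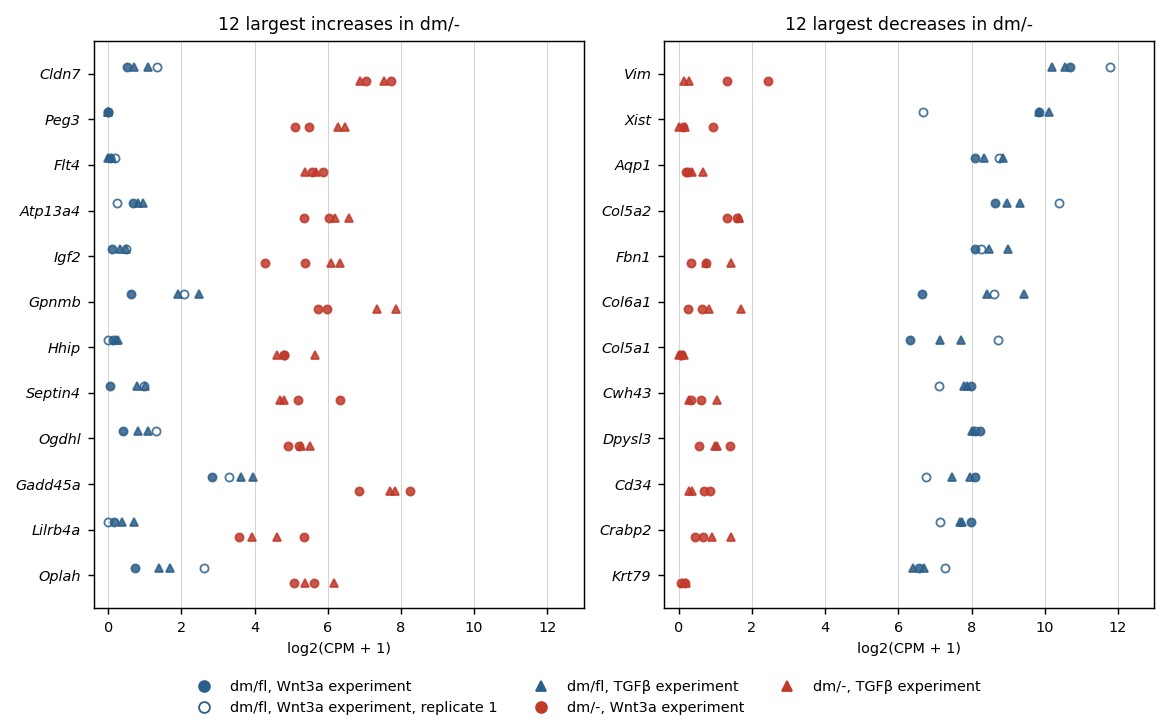
log2(CPM + 1) of the 12 genes that rose most and the 12 that fell most on this scale in dm/- cells, taken from called genes whose groups did not overlap, in each of the 8 untreated samples. Symbols are as in the plot of epithelial and mesenchymal genes, and in each row the red and blue points are separated.

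Beyond junction and matrix genes the largest increases covered several functions. Peg3, an imprinted zinc finger gene expressed from the paternal allele, had 0 reads in all dm/fl libraries and 43.6, 33.6, 76.6 and 88.5 CPM in dm/- cells, at least 2449-fold higher (limma adjusted p = 1.12e-05). As a ratio of CPM it rose by more than Cldn7. Igf2, an imprinted growth factor, rose, with 0.0615 to 0.408 CPM in dm/fl and 18.4 to 79.7 CPM in dm/- cells (log2 fold change 5.17 ± 0.37 SE, limma adjusted p = 5.62e-05). Flt4, the receptor of lymphatic vascular growth factors, had 46.8, 57.3, 50.1 and 40.9 CPM in dm/- and 0.136, 0.0307, 0.0621 and 0 CPM in dm/fl cells (log2 fold change 5.55 ± 0.22 SE, limma adjusted p = 6.85e-06). Gpnmb, a transmembrane glycoprotein, Hhip, which binds Hedgehog ligands, and Atp13a4, a cation-transporting ATPase, rose by 4.97, 4.83 and 5.38 on the log2 scale. Septin4, Ogdhl, Lilrb4a and Oplah completed the list, with log2 fold changes of 4.56, 4.34, 4.06 and 3.96. Untreated fl/fl cells had 5.84 to 9.47 CPM of Peg3, 0.0315 to 0.449 CPM of Igf2 and 0.483 to 1.65 CPM of Flt4. They had 7.97 to 14.4 CPM of Hhip, 7.60 to 12.7 of Atp13a4 and 2.80 to 8.94 of Septin4. For these last genes dm/fl cells lay lower, at 0 to 0.191, 0.181 to 0.924 and 0.0307 to 0.994 CPM. Oplah lay at 4.33 to 42.0 CPM in fl/fl and 0.646 to 5.13 CPM in dm/fl cells. Gpnmb, Ogdhl and Lilrb4a lay at 0 to 0.0805, 0.115 to 0.487 and 0.524 to 1.89 CPM in fl/fl cells.

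Other large decreases were found outside the matrix genes. Aqp1, a water channel, had 0.150, 0.198, 0.581 and 0.283 CPM in dm/- and 427, 273, 462 and 321 CPM in dm/fl cells (log2 fold change -8.14 ± 0.26 SE, limma adjusted p = 6.58e-06). Cd34, a surface sialomucin, fell, with 107 to 273 CPM in dm/fl and 0.214 to 0.789 CPM in dm/- cells, and Dpysl3, a regulator of the cytoskeleton, had 256 to 300.0 CPM in dm/fl and 0.474 to 1.65 CPM in dm/- cells (log2 fold changes -7.03 and -7.09). Crabp2, which carries retinoic acid to the nucleus, fell, with 140.2 to 250.1 CPM in dm/fl and 0.356 to 1.68 CPM in dm/- cells (log2 fold change -6.78 ± 0.29 SE, limma adjusted p = 7.61e-06). Cwh43 and the keratin Krt79 fell as well (log2 fold changes -7.13 and -6.61). Untreated fl/fl cells had 0 to 1.38 CPM of Dpysl3, 1.57 to 11.5 of Aqp1, 1.89 to 10.7 of Krt79 and 5.80 to 8.97 of Cwh43. They had 32.7 to 53.2 CPM of Crabp2 and 62.0 to 219 CPM of Cd34.

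Xist, the RNA that coats the inactive X chromosome in female cells (chromosome X, 103460373 to 103483233, mm10), was nearly absent from dm/- cells. It had 0.0751, 0.909, 0.122 and 0 CPM in dm/- and 102, 921, 916 and 1111 CPM in dm/fl cells, and the library that stood apart was the lowest dm/fl value (log2 fold change -8.82 ± 0.71 SE, limma adjusted p = 9.78e-05). The Y-linked genes Ddx3y, Eif2s3y, Kdm5d and Uty stayed below the expression filter. In cytokine-treated cells the log2 fold change of Xist was -9.85 (limma adjusted p = 1.63e-07). The 398 genes tested on the X chromosome had a median log2 fold change of -0.13, with 0.02 and -0.26 within the Wnt3a and the TGFβ experiment and -0.40 without the library that stood apart. In cytokine-treated cells the X chromosome had a median of -0.50. In untreated cells 22 of the 398 genes were called higher and 49 lower, and the 17.8% called was near the 16.3% of all genes.

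Cdkn2b and Cdkn2a, neighboring inhibitors of cyclin-dependent kinases on chromosome 4 (chromosome 4, 89306289 to 89311032 and chromosome 4, 89274473 to 89294619, mm10), were lower in dm/- cells. Cdkn2b had 0, 0.0395, 0 and 0 CPM in dm/- and 16.6, 10.5, 24.3 and 14.2 CPM in dm/fl cells. This was 1 read in dm/- against 1938 in dm/fl cells, a ratio of dm/fl to dm/- of 1852 with a 95% counting interval of 332 to 73206 (log2 fold change -4.05, limma adjusted p = 3.73e-05). Cdkn2a had 3 reads against 202, a ratio of 64.4 with a 95% counting interval of 21.7 to 315 (log2 fold change -1.33, limma adjusted p = 0.0389), and its call was lost without any single library other than dm/fl replicate 2 of the Wnt3a experiment. Mtap, the next gene on this chromosome in the list, did not pass the test (log2 fold change -0.29, limma adjusted p = 0.734), nor did Mllt3 (adjusted p = 0.111, limma).

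**Figure D3:**
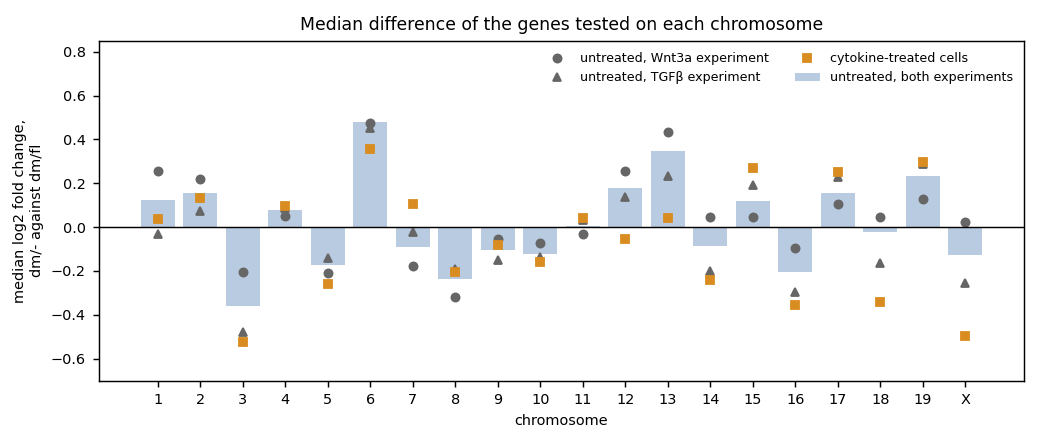
Median log2 fold change, dm/- against dm/fl, of the genes tested on each chromosome, as bars for all untreated samples, circles and triangles for the untreated cells of the Wnt3a and the TGFβ experiment, and squares for cytokine-treated cells. Chromosome 6 has the highest bar at 0.48 and chromosome 3 the lowest at -0.36.

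Chromosome medians were not all alike. The 596 genes tested on chromosome 6 had a median log2 fold change of 0.48 in all untreated samples, 0.48 and 0.45 within the Wnt3a and the TGFβ experiment and 0.36 in cytokine-treated cells, with 77 called higher and 63 lower, or 23.5% against 16.3% of all genes. The 601 genes of chromosome 3 had medians of -0.36, -0.21, -0.48 and -0.53 in the same order, with 18 called higher and 106 lower, or 20.6%. The medians of both chromosomes kept their sign in every group of samples, as did those of others such as chromosomes 8 and 19. The untreated groups share samples. Chromosome 18 had the largest share called, 24.6%, with 19 higher and 63 lower and a median of -0.02. Chromosome 13 had a median of 0.35 in untreated cells, 0.15 without the library that stood apart, and 0.04 in cytokine-treated cells. These medians are descriptions without a test.

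Basal markers were lower in dm/- cells where they differed. Of 18 basal and myoepithelial markers, 0 were called higher and 8 lower, against 6.23% and 10.1% of all genes. The number called lower was 8 or 9 with any single library left out. Trp63, the master factor of basal epithelium, had 0.150, 0.198, 1.25 and 0.672 CPM in dm/- and 33.4, 53.8, 55.3 and 64.6 CPM in dm/fl cells (log2 fold change -5.09 ± 0.26 SE, limma adjusted p = 1.20e-05). Krt14, a basal keratin, had 34.2, 114, 121 and 49.8 CPM in dm/- and 2694, 696, 367 and 483 CPM in dm/fl cells, and the library that stood apart was the highest (log2 fold change -3.42 ± 0.64 SE, limma adjusted p = 0.00654, and -2.83 without it). Krt6a, a keratin of activated epithelium, fell, with 102 to 330.1 CPM in dm/fl and 0.0376 to 3.91 CPM in dm/- cells (log2 fold change -6.32 ± 0.55 SE, limma adjusted p = 0.000138). The groups of these 3 genes did not overlap. Itga6, Itgb4 and Egfr did not pass the test (adjusted p = 0.672, 0.473 and 0.317, limma). A member was called higher without dm/fl replicate 1, dm/- replicate 1 of the Wnt3a experiment or dm/- replicate 1 of the TGFβ experiment.

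Squamous differentiation genes had a median log2 fold change of -1.73. Of 16 tested, 0 were called higher and 11 lower, against 6.23% and 10.1% of all genes, with 10 to 12 lower when single libraries were left out. Klk10, a secreted serine protease, had 1.503, 3.52, 0.275 and 0.530 CPM in dm/- and 229.6, 179, 109 and 93.7 CPM in dm/fl cells (log2 fold change -6.06 ± 0.28 SE, limma adjusted p = 1.05e-05). Tgm1, the transglutaminase of the cornified envelope, and Dmkn, a secreted epidermal protein, fell too (log2 fold changes -4.06 and -4.16). Sprr1a, an envelope precursor, had 3 reads in dm/- and 1441 in dm/fl cells. Krt10 and Lor, genes of the upper epidermis, did not pass the test (adjusted p = 0.452 and 0.0575, limma).

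Luminal markers split. Of 15 tested, 3 were called higher and 4 lower, or 46.7% against 16.3% of all genes. Lcn2, an iron-carrier protein of secretory and inflamed epithelium, rose, with 1.23 to 55.8 CPM in dm/fl and 199.9 to 319 CPM in dm/- cells (log2 fold change 3.95 ± 0.77 SE, limma adjusted p = 0.00833), and Foxa1, a pioneer factor of hormone-responsive cells, had 0.497 to 1.497 CPM in dm/fl and 3.04 to 4.77 CPM in dm/- cells (log2 fold change 1.42 ± 0.25 SE, limma adjusted p = 0.00508). Esr1, the estrogen receptor, had 11.5, 8.54, 7.73 and 9.09 CPM in dm/- and 23.2, 45.6, 60.1 and 59.3 CPM in dm/fl cells (log2 fold change -2.16 ± 0.34 SE, limma adjusted p = 0.00283), and Ltf, the milk protein lactoferrin, fell with a log2 fold change of -5.61. Pgr, the progesterone receptor, had 0 reads in dm/- and 400 in dm/fl cells, of which most lay in the TGFβ experiment (0.635, 0.154, 6.99 and 4.97 CPM). Krt8 and Gata3 did not pass the test (adjusted p = 0.156 and 0.203, limma).

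**Figure D4:**
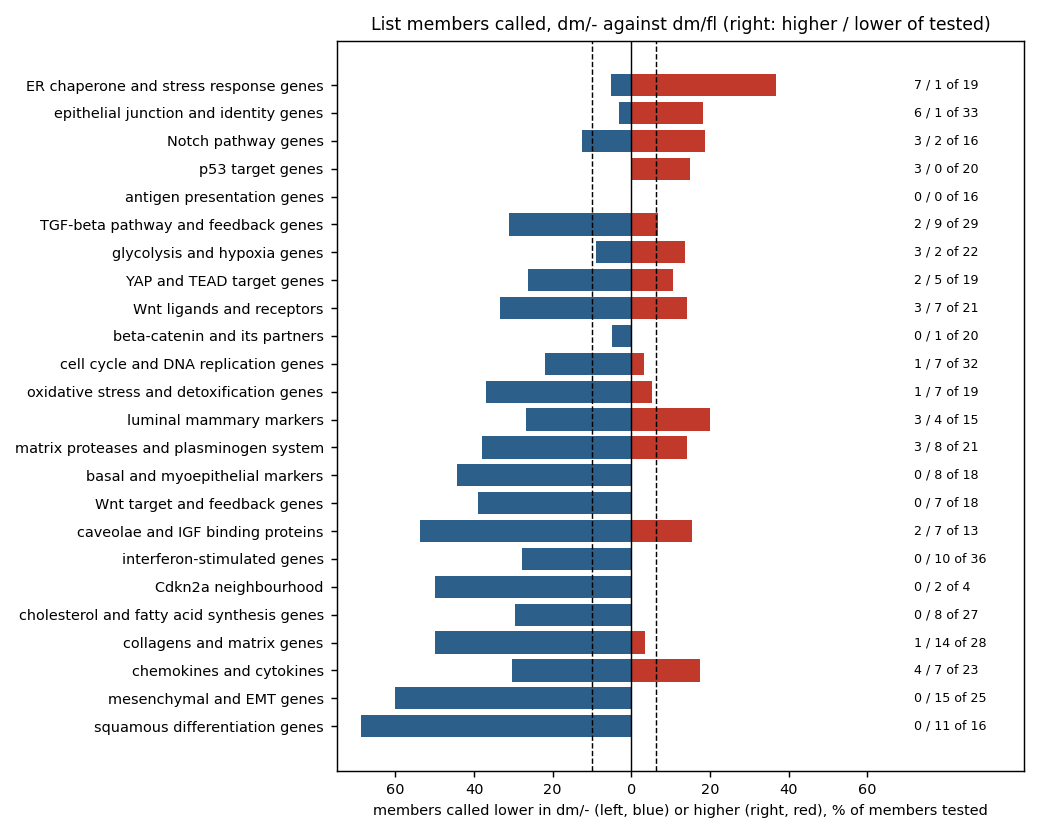
Share of the tested members called higher (red, right) or lower (blue, left) in dm/- cells, in percent, for each gene list other than the markers of other cell types and the sex chromosome transcripts, ordered by the median log2 fold change, with the numbers at the right and dashed lines at the shares of all genes, 6.23% and 10.1%. Among the lists drawn, that of the stress response reaches farthest to the right, with 7 of 19 members, and the squamous list farthest to the left, with 11 of 16.

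In the integrated stress response Atf4 is translated under amino acid shortage or endoplasmic reticulum (ER) stress and activates Ddit3, Trib3, Chac1 and Asns, partly through a composite element with the core TGATGNAA. The promoters of Chac1 and Asns are shown because both genes rose and both windows hold this core, in capitals, as TGATGNAA or its reverse complement TTNCATCA. They are the 250 bases before the RefSeq start (GRCm38.p6) on the strand of the gene, chr2:119350992-119351241, plus strand, for Chac1 and chr6:7693210-7693459, minus strand, for Asns.
Chac1: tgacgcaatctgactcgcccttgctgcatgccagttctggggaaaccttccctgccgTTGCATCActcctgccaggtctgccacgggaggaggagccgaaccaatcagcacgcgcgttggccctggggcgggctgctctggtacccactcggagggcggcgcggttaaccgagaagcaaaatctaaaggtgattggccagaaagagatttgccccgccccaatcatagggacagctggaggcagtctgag
Asns: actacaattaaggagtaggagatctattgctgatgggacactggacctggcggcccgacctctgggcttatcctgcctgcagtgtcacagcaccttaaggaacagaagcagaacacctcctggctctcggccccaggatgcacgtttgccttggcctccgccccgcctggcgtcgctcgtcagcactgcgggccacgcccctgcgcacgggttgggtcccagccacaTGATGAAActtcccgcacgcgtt
The match began 193 bases before the Chac1 start and 23 bases before the Asns start. The core was found in 3.45% of 32851 windows, in at least 1 window of 3.91% of 27025 genes, and in 3 of the 7 stress genes called higher, Atf3, Asns and Chac1.

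Of 19 ER chaperone and stress response genes, 7 were called higher and 1 lower in dm/- cells, against 6.23% and 10.1% of all genes, and 7 or 8 were called higher with any single library left out. Atf4 had 939, 1211, 722 and 613 CPM in dm/- and 376, 311, 281 and 210.4 CPM in dm/fl cells (log2 fold change 1.54 ± 0.21 SE, limma adjusted p = 0.00157). Trib3, a pseudokinase induced by Atf4, had 289, 320.1, 316 and 179.7 CPM in dm/- and 83.6, 11.4, 15.7 and 17.6 CPM in dm/fl cells (log2 fold change 3.50 ± 0.54 SE, limma adjusted p = 0.00272). Asns, which encodes asparagine synthetase, had 1079.8, 1105, 482 and 544 CPM in dm/- and 151, 309, 132 and 119 CPM in dm/fl cells (log2 fold change 2.18 ± 0.26 SE, limma adjusted p = 0.000716). In each of the 3 genes all dm/- values were above all dm/fl values. Ddit3, a pro-apoptotic factor also called CHOP, and Atf3 rose by 2.82 and 2.83 on the log2 scale. Chac1, which degrades glutathione, and Ppp1r15a, which reverses the translation block, rose by 2.78 and 2.61. The ER chaperones Hspa5, Hsp90b1 and Pdia4 and the factor Xbp1 did not pass the test (adjusted p = 0.863, 0.461, 0.0671 and 0.766, limma). The single gene called lower, the co-chaperone Dnajc3 (log2 fold change -1.17 ± 0.33 SE, limma adjusted p = 0.0406), was called in 9 of 18 alternative analyses, and of the 8 that left out a library only without the one that stood apart, when 2 members were called lower.

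The p53 targets gave 3 genes called higher and 0 lower of 20 tested, against 6.23% and 10.1% of all genes. In both directions together the 15% called was near the 16.3% of all genes. Plk2, a kinase induced by stress, rose, with 127 to 428 CPM in dm/fl and 501 to 1165 CPM in dm/- cells (log2 fold change 1.98 ± 0.40 SE, limma adjusted p = 0.0101), and Pmaip1, the BH3-only protein Noxa, had 16.9 to 41.5 CPM in dm/fl and 51.5 to 187 CPM in dm/- cells (log2 fold change 2.02 ± 0.41 SE, limma adjusted p = 0.0105). Gadd45a, a growth arrest gene that other stress factors also induce, was listed with the Yap targets. It had 306, 115, 229 and 207 CPM in dm/- and 8.85, 6.09, 14.6 and 11.3 CPM in dm/fl cells (log2 fold change 4.23 ± 0.34 SE, limma adjusted p = 9.87e-05). Its level also varied widely within untreated fl/fl cells, from 13.4 to 181 CPM. Cdkn1a and Mdm2, the standard p53 targets, did not pass the test (adjusted p = 0.0806 and 0.0819, limma). The numbers higher were 6 and 5 without dm/fl replicate 1 and 2 of the Wnt3a experiment, and 2 members were then called lower without replicate 1.

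Of 19 oxidative stress and detoxification genes, 1 was called higher and 7 lower, or 42.1% against 16.3% of all genes. The number lower was 6 to 9 when single libraries were left out. Nqo1, a quinone reductase, had 0.0751, 0.119, 0.0306 and 0.0707 CPM in dm/- and 34.8, 158, 62.4 and 56.4 CPM in dm/fl cells (log2 fold change -5.97 ± 0.43 SE, limma adjusted p = 5.97e-05). Aldh3a1, an aldehyde dehydrogenase, had 5.71, 38.3, 20.3 and 9.12 CPM in dm/- and 975, 775, 334 and 451 CPM in dm/fl cells (log2 fold change -5.24 ± 0.55 SE, limma adjusted p = 0.000365). Both genes were separated by genotype in every sample. The glutathione transferases Gsta4 and Gstm1 also fell (log2 fold changes -2.66 and -2.65). Slc7a11, the cystine transporter, which Atf4 also induces, was the gene called higher (log2 fold change 2.03 ± 0.46 SE, limma adjusted p = 0.0166), a call that was lost without dm/- replicate 2 of the Wnt3a experiment, dm/- replicate 1 or dm/fl replicate 2 of the TGFβ experiment. Hmox1, Gclc and Txnrd1 did not pass the test (adjusted p = 0.79998, 0.321 and 0.196, limma).

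Interferon-stimulated genes were called lower in 10 of 36 cases and higher in 0, or 27.8% against 16.3% of all genes, with a median log2 fold change of -1.12. Oas1a, a sensor of double-stranded RNA, had 0.413, 0.474, 0.489 and 0.283 CPM in dm/- and 20.005, 6.46, 54.4 and 26.7 CPM in dm/fl cells, with no overlap (log2 fold change -3.97 ± 0.47 SE, limma adjusted p = 0.000716). The summed level of the list was 864 to 1017 CPM in dm/- cells, 1002 and 746 CPM in the dm/fl cells of the Wnt3a experiment, and 3826 and 1920.5 CPM in those of the TGFβ experiment. The dm/- cells of the Wnt3a experiment summed to 977 and 1017 CPM, so that in this experiment 1 dm/fl sum lay between them and the other below both. The count of lower genes followed the libraries, at 18 and 16 without dm/fl replicate 1 and 2 of the Wnt3a experiment, 4 without dm/- replicate 2 of the Wnt3a experiment, and 1 to 3 without any library of the TGFβ experiment. Of 16 antigen presentation genes, 0 were called in either direction, against 16.3% of all genes. With libraries left out, 1 was higher without dm/fl replicate 1 and 1 lower without dm/fl replicate 2 of the Wnt3a experiment.

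Chemokines and cytokines gave 4 genes called higher and 7 lower of 23, or 47.8% against 16.3% of all genes. Ccl7, which attracts monocytes, had 0.488, 1.58, 0.367 and 0.248 CPM in dm/- and 26.9, 44.1, 73.6 and 39.8 CPM in dm/fl cells (log2 fold change -4.79 ± 0.38 SE, limma adjusted p = 9.38e-05), and Cxcl12, a chemokine of stroma, had 1.92, 2.02, 0.947 and 1.31 and 35.8, 47.2, 199 and 59.9 CPM (log2 fold change -4.76 ± 0.50 SE, limma adjusted p = 0.000347). Il33, an alarmin, had 0 reads in dm/- cells and 1.497, 8.06, 28.7 and 13.3 CPM in dm/fl cells, at least 520.3-fold lower. Csf2, the granulocyte-macrophage growth factor, rose, with 0.0907 to 0.414 CPM in dm/fl and 1.99 to 26.1 CPM in dm/- cells (log2 fold change 2.70 ± 0.51 SE, limma adjusted p = 0.00733), and Cxcl16 rose too, with 162 to 269 CPM in dm/fl and 435 to 704 CPM in dm/- cells (log2 fold change 1.44 ± 0.23 SE, limma adjusted p = 0.00313). The number called lower was 12 and 11 without dm/fl replicate 1 and 2 of the Wnt3a experiment and 4 without any library of the TGFβ experiment, and the number called higher was 2 without dm/- replicate 1 or 2 of the Wnt3a experiment.

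Cholesterol and fatty acid synthesis genes were called lower in 8 of 27 cases and higher in 0, or 29.6% against 16.3% of all genes. Their median log2 fold change was -1.14, with 26 members below 0. Idi1, an isomerase of the mevalonate pathway, had 1.13, 2.73, 2.54 and 1.94 CPM in dm/- and 18.5, 5.69, 10.4 and 9.18 CPM in dm/fl cells, with no overlap (log2 fold change -1.88 ± 0.37 SE, limma adjusted p = 0.00836). The call of Idi1 was lost when the trend with GC content was removed from each sample, with a log2 fold change of -1.99, and over all 18 alternatives the fold change lay between -2.38 and -1.54. Fasn, the fatty acid synthase, did not pass the test (adjusted p = 0.298, limma). The number lower was 14 without the library that stood apart and 2 to 4 without dm/- replicate 1 of the Wnt3a experiment or any library of the TGFβ experiment.

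Of 22 glycolysis and hypoxia genes tested, 3 were called higher and 2 lower, or 22.7% against 16.3% of all genes. Ndrg1, a hypoxia-induced gene, rose, with 104 to 201 CPM in dm/fl and 512 to 719 CPM in dm/- cells (log2 fold change 2.04 ± 0.22 SE, limma adjusted p = 0.000394), and Vegfa, the vascular growth factor, and Hk2, a hexokinase, rose by 1.77 and 1.43 on the log2 scale. Adm, the vasodilator adrenomedullin, had 1 read in dm/- and 254 reads in dm/fl cells, and Ldha, the lactate dehydrogenase, fell (log2 fold change -1.29 ± 0.37 SE, limma adjusted p = 0.0406), a call lost without dm/- replicate 1 of the Wnt3a experiment or any library of the TGFβ experiment. The other enzymes of the chain from Gpi1 to Pkm did not pass the test.

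Of 32 cell cycle and DNA replication genes, 1 was called higher and 7 lower, or 25% against 16.3% of all genes, with a median log2 fold change of -0.54. Ccnd2, a cyclin of the G1 phase, had 0.225, 0.0395, 1.10001 and 0.707 CPM in dm/- and 15.6, 23.2, 22.9 and 15.96 CPM in dm/fl cells (log2 fold change -3.78 ± 0.27 SE, limma adjusted p = 6.32e-05), and Cdc20, an activator of the anaphase-promoting complex, fell, with 80.7 to 256 CPM in dm/fl and 20.9 to 109 CPM in dm/- cells (log2 fold change -1.69 ± 0.36 SE, limma adjusted p = 0.0119), with overlapping groups. E2f1, a factor of S phase entry, was the gene called higher. It was called in 11 of 18 alternative analyses, and of the 8 that left out a library in those without dm/- or dm/fl replicate 1 of the Wnt3a experiment. Mki67 and Mcm2 did not pass the test (adjusted p = 0.0603 and 0.983, limma). The number lower was 15 without the library that stood apart and 1 or 2 without dm/- replicate 1 of the Wnt3a experiment or any library of the TGFβ experiment. Cdc20 lost its call without dm/fl replicate 2 of the TGFβ experiment (limma adjusted p = 0.0520).

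Of 29 genes of the TGFβ pathway, 2 were called higher and 9 lower, or 37.9% against 16.3% of all genes. Id2, an inhibitor of helix-loop-helix factors and a target of BMP and TGFβ signals, had 1.01, 2.77, 4.80 and 2.86 CPM in dm/- and 134, 90.6, 115 and 77.5 CPM in dm/fl cells (log2 fold change -4.83 ± 0.36 SE, limma adjusted p = 6.77e-05). Tgfb2, a ligand, fell, with 7.21 to 39.1 CPM in dm/fl and 0.451 to 3.18 CPM in dm/- cells (log2 fold change -2.96 ± 0.30 SE, limma adjusted p = 0.000296), and the receptor Tgfbr2 fell with a log2 fold change of -1.34. The Smad2, Smad3 and Smad4 transducers did not pass the test (adjusted p = 0.794, 0.845 and 0.739, limma). The number lower was 5 without dm/- replicate 2 of the TGFβ experiment, and the 2 genes called higher, Tgfbr1 and Acvr1b, were each called in 10 of 18 alternative analyses. With single libraries left out both were called only without dm/fl replicate 1 of the Wnt3a experiment, when 4 members were called higher, and Tgfbr1 also without its replicate 2.

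Proteases and their inhibitors gave 3 genes called higher and 8 lower of 21, or 52.4% against 16.3% of all genes. Mmp13, a collagenase, rose, with 1.45 to 8.92 CPM in dm/fl and 55.1 to 173 CPM in dm/- cells (log2 fold change 3.87 ± 0.53 SE, limma adjusted p = 0.00146), and Ctsl, a lysosomal protease, had 87.5 to 311 CPM in dm/fl and 718 to 1176 CPM in dm/- cells (log2 fold change 2.16 ± 0.42 SE, limma adjusted p = 0.00784). Timp1, an inhibitor of matrix metalloproteases, had 21.2, 55.5, 8.89 and 9.16 CPM in dm/- and 203, 180.1, 108 and 111 CPM in dm/fl cells (log2 fold change -2.95 ± 0.35 SE, limma adjusted p = 0.000716). Timp2 and Timp3, inhibitors of the same family, fell too (log2 fold changes -1.64 and -2.71). All 3 inhibitors were lower in every dm/- sample than in any dm/fl sample.

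Yap and Tead targets included Ankrd1, which rose, with 85.1 to 129 CPM in dm/fl and 294 to 578 CPM in dm/- cells (log2 fold change 1.75 ± 0.28 SE, limma adjusted p = 0.00328), and Ccn1, which fell, with 228 to 391 CPM in dm/fl and 91.0 to 153 CPM in dm/- cells (log2 fold change -1.26 ± 0.25 SE, limma adjusted p = 0.00911). In the list 2 were called higher and 5 lower of 19, or 36.8% against 16.3% of all genes. The number lower was 2 or 3 without dm/- replicate 2 of the Wnt3a experiment or any library of the TGFβ experiment. Notch pathway genes gave 3 called higher and 2 lower of 16, or 31.2% against 16.3% of all genes. The ligand Jag1 rose, with 14.5 to 16.1 CPM in dm/fl and 27.1 to 70.2 CPM in dm/- cells (log2 fold change 1.68 ± 0.31 SE, limma adjusted p = 0.00605), and Nrarp, a feedback target of Notch, rose, with 1.86 to 4.81 CPM in dm/fl and 11.8 to 20.007 CPM in dm/- cells (log2 fold change 2.12 ± 0.27 SE, limma adjusted p = 0.000976). Hes1 and Hey1, standard Notch targets, did not pass the test (adjusted p = 0.204 and 0.974, limma). The 2 called lower, Notch2 and Notch3, were both still called when dm/fl replicate 2 of the Wnt3a experiment was left out, and at most 1 of them without any other library.

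Of 13 genes for caveolae and insulin-like growth factor binding, 2 were called higher and 7 lower, or 69.2% against 16.3% of all genes. Cavin1, a coat protein of caveolae, had 0.413, 0.633, 0.886 and 1.06 CPM in dm/- and 46.3, 29.8, 23.6 and 20.8 CPM in dm/fl cells (log2 fold change -4.10 ± 0.30 SE, limma adjusted p = 6.77e-05). Igfbp3, a binding protein of the growth factors, fell, with 53.6 to 95.3 CPM in dm/fl and 3.67 to 8.15 CPM in dm/- cells (log2 fold change -3.30 ± 0.27 SE, limma adjusted p = 0.000114), while Igf2r, which clears Igf2, rose, with 479 to 638 CPM in dm/fl and 1097 to 1452 CPM in dm/- cells (log2 fold change 1.16 ± 0.21 SE, limma adjusted p = 0.00578). The number higher was 4 without the library that stood apart, and the number lower was 3 or 4 without dm/- replicate 1 or 2 of the Wnt3a experiment or any library of the TGFβ experiment.

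The series holds the same kind of pair for other β-catenin alleles, named ΔC and D164A, and the difference of dm/- from dm/fl was tested against theirs. D164A is a point mutation at the site where Bcl9 proteins bind. The pairs share no samples. Within the ΔC pair 1496 genes were called (12.2%) and within the D164A pair 878 (7.28%). The difference of dm departed from that of ΔC in 1612 genes (12.5% of those tested), 647 upward and 965 downward, and from that of D164A in 2809 genes (21.7%), 1293 upward and 1516 downward. Without the library that stood apart these counts were 2374 and 3864. Of the 2016 genes called in dm, 933 also passed the test against ΔC and 1542 the test against D164A. Both tests reuse the dm samples on which the 2016 genes were called. These numbers are therefore raised in advance and are no independent evidence.

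Cldn7 showed how the pairs departed. It had 161 ± 43.4 CPM (SD, n = 4) in dm/- and 0.916 ± 0.483 CPM in dm/fl cells, but 16.5 ± 4.52 and 63.6 ± 12.2 CPM in ΔC/- and ΔC/fl cells and 82.6 ± 39.3 and 130.5 ± 61.0 CPM in D164A/- and D164A/fl cells. Of the 6 groups, dm/fl was the only 1 with a mean below 10 CPM. Untreated fl/fl cells, outside these groups, lay at 48.5 to 176 CPM. The difference of log2 fold changes was 8.30 ± 0.39 (SE) against ΔC and 7.05 ± 0.46 against D164A (limma adjusted p = 5.56e-09 and 4.65e-08).

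Vim was lower in ΔC/- than in ΔC/fl cells too, with 53.6 ± 51.7 against 1613 ± 824 CPM (SD, n = 4), but not in the D164A pair, with 347 ± 7.12 against 188 ± 248 CPM. The dm difference departed from that of ΔC by -4.59 and from that of D164A by -11.83 (log2, limma adjusted p = 9.28e-05 and 1.36e-07). Xist had 1624 ± 446 and 627 ± 301 CPM in ΔC/- and ΔC/fl cells and 1072 ± 575 and 758 ± 436 CPM in the D164A pair. The near absence in dm/- cells departed from both pairs, by -10.36 and -9.33 (log2, limma adjusted p = 1.30e-06 and 8.12e-06). Untreated fl/fl cells had 38.2 to 119 CPM of Vim and 853 to 1916 CPM of Xist. Col6a1 and Col5a1, in contrast, fell in ΔC/- cells as well (-8.07 and -6.40, log2), and their dm and ΔC differences did not pass the test of departure (limma adjusted p = 0.747 and 0.440).

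Several genes moved in opposite directions in the pairs. Gpnmb rose in dm/- cells and fell in ΔC/- cells, from 41.8 ± 29.1 to 0.0157 ± 0.0315 CPM (SD, n = 4), and the departure was 9.97 (log2, limma adjusted p = 1.26e-07). Rhox5, an X-linked homeobox gene, fell, with 18.0 to 59.0 CPM in dm/fl and 0 to 0.119 CPM in dm/- cells, and rose in ΔC/- cells by 3.57 (log2), and Glipr2 showed the reverse (2.67 and -4.75). Slc43a3, a nucleobase transporter, fell in dm/- cells and rose in ΔC/- cells (log2 fold changes -5.47 and 1.92). Against D164A, Slc7a2, a transporter of cationic amino acids, fell in dm/- and rose in D164A/- cells (log2 fold changes -6.39 and 1.68). Il23a, a subunit of interleukin 23, and Reep6 rose in dm/- cells (3.66 and 3.91, log2) and fell in D164A/- cells (-4.56 and -3.14). Mmp13 departed from D164A by 7.87 ± 1.68 (SE), although its D164A/- against D164A/fl difference did not pass the test by itself (limma adjusted p = 0.104). Peg3 rose in D164A/- cells as well (3.56, log2), and Col5a2 was at or near 0 in both ΔC groups, at 0.240 to 0.973 CPM in ΔC/fl cells.

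**Figure D5:**
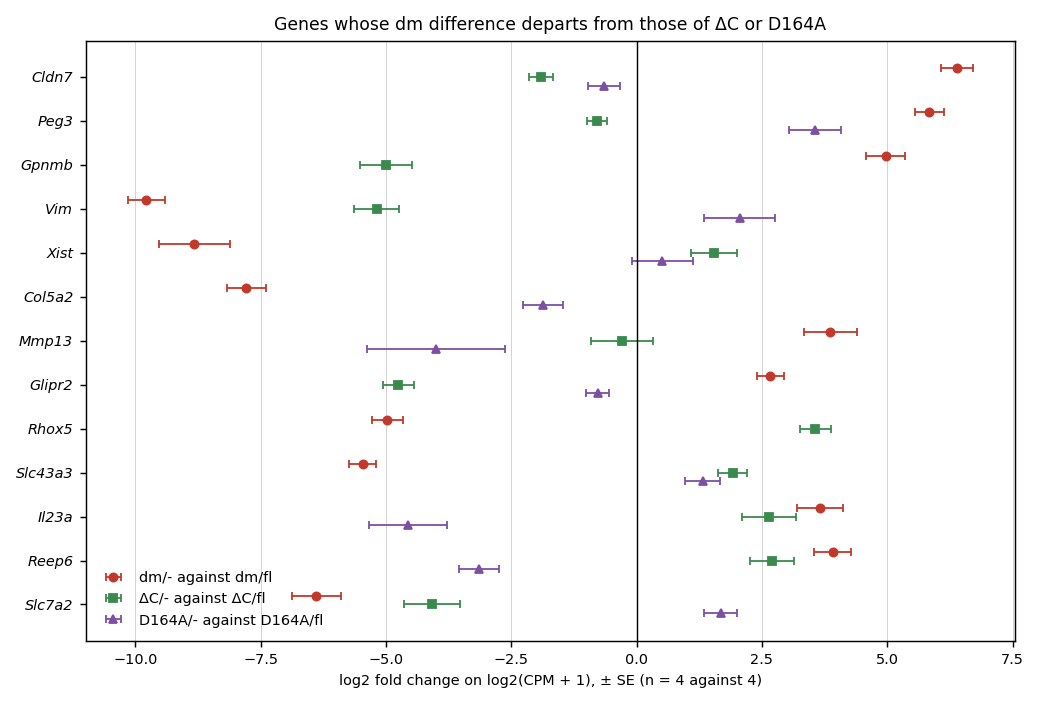
log2 fold change ± SE of 13 genes chosen for a large departure of the dm difference from ΔC or D164A, with dm as red circles, ΔC as green squares and D164A as purple triangles (4 samples against 4 each, not drawn where a gene was not tested in a pair). Gpnmb, Glipr2, Rhox5 and Slc43a3 lie on opposite sides of 0 in dm and ΔC, and Il23a, Reep6 and Slc7a2 in dm and D164A.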

How the data were processed

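RNA of 56 samples was sequenced as poly(A)-selected, stranded TruSeq libraries. Per the labels and the methods, the authors mapped reads to mm10 with STAR, kept unique alignments, counted them per gene with QuasR and scaled them with edgeR. The deposited signal values of 20314 genes were reads divided by an effective library size in M reads, called CPM here, since 100% of the values became whole reads (tolerance 0.001) once divided by what 1 read is worth.

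The 8 samples (24.8 to 31.8 M reads) were fitted with limma 3.58.1 (R 4.3.3) on log2(CPM + 1), with genotype and experiment as terms and a mean-variance trend, over genes that reached 1 CPM in 2 or more samples. p-values were adjusted over all genes tested by Benjamini-Hochberg and were two-sided. Each experiment alone and the difference between experiments were fitted with a term for each condition over the same 8 samples. Cytokine-treated cells and the differences from ΔC and D164A, with 4 untreated samples of each genotype, were fitted likewise. Genes listed at 3 or fewer reads in a genotype were given by their reads, with exact intervals, or a limit of 3 reads over the group. Depth limits precision most for such genes.

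The members, gene lists and tests were chosen with earlier results of these data known. Genes named were the 12 largest increases and decreases among called genes whose groups did not overlap, up to 3 called genes in each direction of each list, Ctnnb1, Axin2, Lef1, Bcl9 and Bcl9l, and the 4 called genes that departed most each way from ΔC or D164A. Other list members were named to fill out a count and were chosen after their values were seen. Promoters came from RefSeq tables (GRCm38.p6). Alternatives were another pseudocount, no filter, median-of-ratios rescaling, edgeR 4.0.16 on whole reads, all 56 samples in 1 fit, a replicate block, removal of GC trends, looser thresholds and each library left out. Figures were drawn with matplotlib 3.10.9. Y-linked genes and other members below the filter were not tested. A few genes named by this rule are not reported here.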

Additional observations from a re-analysis of the deposited data

Results flagged for a closer look

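In 253 groups of 4 values, 1 gene in 1 genotype each, 17 had a highest or lowest value far from the other 3 by Dixon's criterion, and chance gives about 1 in 20. dm/fl replicate 1 of the Wnt3a experiment gave 6 of them, with 102 CPM for Xist, 9.34 CPM for Ephb2, 15.5 CPM for Tgfbr1, 87.5 CPM for Ctsl, 443 CPM for Cryab and 5.85 CPM for Egfl7. dm/- replicate 2 of the Wnt3a experiment gave another 6, with 0.0395 CPM for Ifit3, 318 CPM for E2f1, 51.5 CPM for Pmaip1, 0.0395 CPM for Cdkn2b, 64.0 CPM for Pmvk and 1398 CPM for Ldha. dm/fl replicate 2 of the Wnt3a experiment stood apart for Areg with 61.8 CPM and for Plk2 with 428 CPM. dm/- replicate 1 of the Wnt3a experiment stood apart for Col5a2 with 1.503 CPM and for Adm with 0.0376 CPM, and dm/- replicate 1 of the TGFβ experiment for Axin2 with 0.0306 CPM. The values of Axin2, Cdkn2b, Adm and Ifit3 are single reads.

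The dm/- against dm/fl difference departed from that of ΔC in 1612 genes and from that of D164A in 2809 genes. Against ΔC the departure on the log2 scale was 9.97 for Gpnmb, 8.30 for Cldn7, 7.42 for Glipr2 and 6.63 for Peg3, and it was -10.36 for Xist, -8.54 for Rhox5, -7.38 for Slc43a3 and -7.35 for Col5a2. Against D164A it was 8.22 for Il23a, 7.87 for Mmp13, 7.06 for Reep6 and 7.05 for Cldn7, and it was -11.83 for Vim, -9.33 for Xist and -8.07 for Slc7a2. Each of these departures passed the limma test at an adjusted p of at most 0.05.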

How the results depend on the processing

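Of 129 named genes, 100 had the same call in all 18 alternatives, 26 lost it in at least 1, and the sign of 1 turned, that of Bcl9l, which lay between -1.35 and 0.10 (log2) with 1 library left out, the highest without dm/fl replicate 1 and the lowest without dm/fl replicate 2 of the Wnt3a experiment. The count of 2016 genes lay between 1554 and 2532 under the alternatives that kept the thresholds and all libraries. At an unadjusted p of at most 0.05 and 1.5-fold, the counts were 3712 (1652 higher and 2060 lower), 2454 in the Wnt3a and 2579 in the TGFβ experiment, 293 between experiments, 3098 against ΔC, 4571 against D164A and 4380 in treated cells. With all 56 samples in the fit they were 2276 and 2210 in the Wnt3a and the TGFβ experiment and 84 between experiments. With the GC trend removed they were 2082 and 2288 in the Wnt3a and the TGFβ experiment.

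With 1 library left out at a time, the count was 1345 to 2755, with 503 to 1111 higher and 842 to 1644 lower. It was 182 to 6392 in the Wnt3a experiment, 292 to 2766 in the TGFβ experiment, 0 to 5435 between experiments, 1329 to 2374 against ΔC, 2280 to 3864 against D164A and 1366 to 3388 in treated cells. An arm left with 1 sample was assumed to vary like the others.

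Same-numbered samples did not deviate together (r = -0.554 in the Wnt3a and -0.121 in the TGFβ experiment). In the Wnt3a experiment the GC trends of replicates 1 and 2 ran opposite in dm/fl (Spearman 0.78 and -0.55) and dm/- cells (-0.25 and 0.31). With 1 difference per genotype in each experiment, these values cannot settle whether the numbers pair samples. With the replicate block 1554 genes were called, 307 in the Wnt3a and 530 in the TGFβ experiment, and with the block and the GC trend removed 1496 in the Wnt3a experiment. A block with crossed numbers, chosen after seeing the data, gave 2278, 931 and 1222. The causes of these changes were not tested.

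Depth limits genes at a few reads, where 3 reads are 0.0917 to 0.136 CPM.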
